A study of Mus musculus with 12 samples.

Results

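Fast excitatory transmission in the cortex runs through glutamate receptors and the scaffold that holds them in the postsynaptic density. AMPA, NMDA and kainate receptors are glutamate-gated ion channels built from the Gria, Grin and Grik subunits, metabotropic receptors (Grm) signal through G proteins, and the TARP proteins of the Cacng family are auxiliary subunits that escort AMPA receptors to the synapse. MAGUK proteins (Dlg), Homer proteins and Shank proteins form the scaffold that links these receptors to one another and to the cytoskeleton. Promoters and intronic elements of such genes are open in neurons, and ATAC-seq reads that openness as peaks, by letting the Tn5 transposase place adapters where DNA is accessible. Here the peaks of 36 genes for glutamate receptors and postsynaptic scaffolds are described across treatments. A member region was any merged peak in the body of one of these genes or within 5 kb upstream of one of its start sites (GENCODE vM21, GRCm38), which gave 1485 of the 263785 regions of the series. They lay in 35 of the 36 genes, no region was shared by a pair of members, and Cacng8, with 0 regions under this rule, is not described.

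The 12 libraries came from primary cortical neurons of wild-type C57BL/6 mouse embryos at embryonic day 18, with 3 biological replicates in each of 4 groups. One group received PBS for 7 days and served as the control. The PFF group received pre-formed fibrils of alpha-synuclein, the aggregation-prone protein of Parkinson's disease, for 7 days. PFF+MLi-2 neurons had the same fibrils with the LRRK2 kinase inhibitor MLi-2 in the final 5 days, and PFF+Rab5 ASO neurons had the fibrils with antisense oligonucleotides against the early endosome GTPase Rab5 in the final 3 days. None of the 12 libraries had MLi-2 or the oligonucleotides without fibrils, or a control oligonucleotide. What either agent does alone therefore cannot be told apart from what it does in fibril-treated neurons. All libraries carry the label batch 1.

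Each library had its own list of 137417 to 184717 peaks. Read totals were not used here, and a relative depth derived from the peak values ran from 0.773 to 1.31. It was 0.914 to 0.977 in PBS, 0.773 to 0.920 in PFF, 0.956 to 1.03 in PFF+MLi-2 and 1.05 to 1.31 in PFF+Rab5 ASO. Depth therefore did not overlap in PFF+MLi-2 against PFF or in PFF+Rab5 ASO against either PFF or PBS, so in these 3 comparisons it cannot be told apart from the treatment, and its part in the results below was not tested. The depth takes the smallest peak width of a library as its fragment length, which was 53 to 59 bp with the ASO and 62 to 66 bp elsewhere. Without that division the background pileup gave the same non-overlap, at 1.5 to 1.73 in PFF, 1.77 to 1.90 in PFF+MLi-2, 1.72 to 1.78 in PBS and 1.82 to 2.11 in PFF+Rab5 ASO. A median peak rested on 16 to 18 fragments at its summit. The height of a peak is given here as its percentile, the rank of its fold enrichment among all peaks of its own library from 0 to 100, because the fold itself depends on depth. At least one promoter region was called in all 12 libraries for each of the 6 excitatory and 6 pan-neuronal markers (among them Slc17a7, Neurod6, Map2 and Syn1) and for each of the 5 astrocyte markers (among them Gfap and Aldh1l1). Promoters of 4 of 5 inhibitory neuron markers and 2 of 5 oligodendrocyte markers were called in all 12, and that of Mog was among those called in none. Among the 5 microglial markers 0 were called in all 12, and Cx3cr1 and Aif1 in none. A library called 0 to 3 of the 5 in PBS, 2 to 3 in PFF, 0 to 3 in PFF+MLi-2 and 0 to 1 in PFF+Rab5 ASO. Csf1r and Tmem119 were each called in 3 PFF libraries, 1 PBS library and 1 PFF+MLi-2 library. In PFF+Rab5 ASO Csf1r was called in 2 libraries and Tmem119 in 0. P2ry12 was called in 1 library each of PBS, PFF and PFF+MLi-2 and in 0 of PFF+Rab5 ASO. The part of these markers in the comparisons was not tested.

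Sequences of 11 regions are shown, since they carry the main patterns below. Each is the 200-base window around the summit in GRCm38 (RefSeq), read 5′ to 3′ on the strand of its gene, with motif matches in capitals. The motifs searched on both strands were the AP-1 site TGANTCA, the E-box CACGTG, another E-box with the letters CAGATG, a further E-box with the letters CAGCTG, the GC box GGGCGG, the CRE TGACGTCA, and the MEF2, CTCF, RE1 and RFX sites. A match is a description only. The first pair are lead promoters outside exons, from Grid1 (chr14:34819596-34819795, plus strand, with 1 CACGTG E-box and GC boxes) and Shank1 (chr7:44335528-44335727, plus strand, no match). The third is the highest gene-body region of the set, in a Grid1 intron (chr14:35074730-35074929, plus strand).
Grid1 promoter: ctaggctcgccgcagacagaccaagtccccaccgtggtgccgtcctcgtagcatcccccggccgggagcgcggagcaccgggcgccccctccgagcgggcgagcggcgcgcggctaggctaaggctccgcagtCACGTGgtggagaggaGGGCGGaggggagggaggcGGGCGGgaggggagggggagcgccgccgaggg
Shank1 promoter: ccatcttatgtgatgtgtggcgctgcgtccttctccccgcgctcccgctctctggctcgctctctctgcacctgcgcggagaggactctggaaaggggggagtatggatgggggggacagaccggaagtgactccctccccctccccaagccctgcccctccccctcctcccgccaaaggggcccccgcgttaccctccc
Grid1 intron: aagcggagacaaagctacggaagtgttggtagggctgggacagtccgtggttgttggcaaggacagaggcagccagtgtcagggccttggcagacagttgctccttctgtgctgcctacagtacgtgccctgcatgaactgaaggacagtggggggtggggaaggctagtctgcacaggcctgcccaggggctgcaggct

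The next 4 windows are introns whose height differed with the Rab5 ASO in the limma test. They lie in Grm4 (chr17:27500915-27501114, minus strand, an AP-1 site in capitals), Gria1 (chr11:57271638-57271837, plus strand, a CAGATG E-box), Grm7 (chr6:111351332-111351531, plus strand) and Dlg2 (chr7:91420247-91420446, plus strand). The Grm4 and Gria1 windows, which ranked lower with the ASO, are 62.0% and 51.5% G+C, against 31.5% and 40.0% in the Grm7 and Dlg2 windows, which ranked higher.
Grm4 intron: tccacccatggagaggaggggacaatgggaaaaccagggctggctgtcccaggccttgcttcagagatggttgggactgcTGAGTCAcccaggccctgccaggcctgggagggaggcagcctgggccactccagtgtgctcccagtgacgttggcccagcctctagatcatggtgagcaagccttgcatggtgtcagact
Gria1 intron: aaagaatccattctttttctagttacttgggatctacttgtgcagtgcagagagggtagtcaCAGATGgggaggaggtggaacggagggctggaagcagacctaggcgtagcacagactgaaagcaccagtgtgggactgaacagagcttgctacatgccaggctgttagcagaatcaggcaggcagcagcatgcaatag
Grm7 intron: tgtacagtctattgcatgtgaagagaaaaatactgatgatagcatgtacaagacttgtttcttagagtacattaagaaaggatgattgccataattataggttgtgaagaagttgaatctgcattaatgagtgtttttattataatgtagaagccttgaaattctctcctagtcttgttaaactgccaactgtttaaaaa
Dlg2 intron: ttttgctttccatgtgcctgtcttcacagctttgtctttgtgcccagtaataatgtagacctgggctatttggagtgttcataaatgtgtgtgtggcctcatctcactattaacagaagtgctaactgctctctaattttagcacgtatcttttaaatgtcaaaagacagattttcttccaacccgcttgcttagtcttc

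The last 4 are introns whose peak was present or absent by group. Peaks in Grik4 (chr9:42651280-42651479, minus strand) and Grm3 (chr5:9703090-9703289, minus strand) were missing in every PFF library and present in every library of PBS and of PFF+MLi-2. A Dlg2 peak (chr7:92095296-92095495, plus strand, with an AP-1 site and a CAGATG E-box) was missing only in the PFF+Rab5 ASO libraries, and a Grm7 peak (chr6:111412565-111412764, plus strand, with a CAGATG E-box) was present only there. The capitals CATCTG are CAGATG read on the other strand.
Grik4 intron: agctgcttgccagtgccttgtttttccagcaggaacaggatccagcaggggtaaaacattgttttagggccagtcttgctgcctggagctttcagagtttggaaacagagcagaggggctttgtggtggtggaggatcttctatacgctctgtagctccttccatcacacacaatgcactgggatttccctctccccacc
Grm3 intron: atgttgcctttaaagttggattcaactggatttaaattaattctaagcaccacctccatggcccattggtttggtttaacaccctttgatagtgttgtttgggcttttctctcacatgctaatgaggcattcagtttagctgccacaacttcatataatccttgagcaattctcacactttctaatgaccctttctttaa
Dlg2 intron, absent with ASO: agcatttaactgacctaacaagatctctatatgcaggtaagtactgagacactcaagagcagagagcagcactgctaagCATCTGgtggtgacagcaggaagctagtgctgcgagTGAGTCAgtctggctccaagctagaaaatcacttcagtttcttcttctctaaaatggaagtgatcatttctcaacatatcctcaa
Grm7 intron, only with ASO: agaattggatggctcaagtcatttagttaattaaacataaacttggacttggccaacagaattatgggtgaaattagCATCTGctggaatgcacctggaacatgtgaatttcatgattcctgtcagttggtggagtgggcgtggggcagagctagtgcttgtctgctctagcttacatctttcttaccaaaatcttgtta

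Most of the openness of these genes lay inside their introns. Of the 1485 regions, 1280 were intronic, 142 lay within 1 kb of a start site and are called promoters, 47 were exonic and 16 lay further upstream. Promoter regions were wider, with a median of 241 bp against 134 bp for introns. They were also the more constant class, since 70 of 142 (49.3%) held a peak in all 12 libraries and 21 in a single library, whereas 263 of 1280 introns (20.5%) held a peak in all 12 and 377 (29.5%) in a single library. The same split held over the genome, where 46.6% of 45098 promoter regions and 22.8% of 109668 other regions in protein-coding gene bodies were called in all 12. In all, 352 member regions were constant and could be compared by height. Over the regions common to all libraries, member promoters had median percentiles of 66.0 to 71.8 in the 4 groups, below the 82.4 to 84.6 of all promoters, and member introns had 65.2 to 70.7 against 68.2 to 72.2 for other gene bodies.

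**Figure D1:**
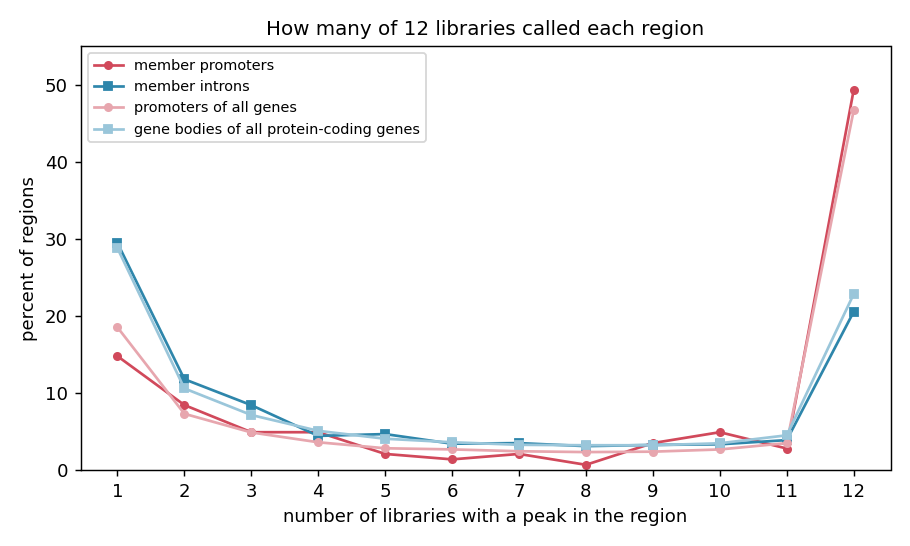
Share of regions (vertical axis, percent) by the number of the 12 libraries that called a peak in them (horizontal axis), for member promoters (n = 142), member introns (n = 1280), promoters of all genes and other gene-body regions of protein-coding genes. Member promoters are called in all 12 libraries in 49.3% of cases and member introns in 20.5%, close to the curves of all genes.

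Motif shares differed between the member classes. GC boxes were found in the windows of 29.6% of member promoters, 3.83% of member introns and 9.49% of all regions. AP-1 sites were found in 4.93% of member promoters, 13.3% of member introns and 10.8% of all regions, and the CAGATG E-box in 11.3%, 25.9% and 22.1%. The CACGTG E-box was in 4.93% of promoters, 2.89% of introns and 3.51% of all regions, and CAGCTG in 12.7%, 16.9% and 16.9%. CRE, MEF2, RE1 and CTCF letters each matched 0 member promoters and 1 member intron. RFX letters matched 2 promoters, the lead promoters of Dlg4 and Shank2, and 12 introns.

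The number of regions followed gene length only in part. Dlg2, which encodes PSD-93 and spans 1973 kb, held 252 regions, and Grid1, the delta receptor, held 141 in 763 kb. Grik4, a high-affinity kainate subunit, held 103 in 426 kb and Shank2 held 99 in 423 kb. Grm7 is the second longest member at 922 kb and held 76, or 8.25 regions per 100 kb. At the short end, Dlg4, which encodes PSD-95, held 16 regions in 30.6 kb, and its 7 constant regions came to 22.9 per 100 kb, against 2.43 for Dlg2 and 0.720 for Gria3.

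Nearly every member had a promoter that was open in every library. The lead promoter of a gene is its promoter region called in the most libraries, and then the one with the highest mean percentile. This rule favours regions called in every library, and the share of all genes with such a promoter was not computed. Of the 35 lead promoters, 34 were called in all 12 libraries. The exception was Grin2c, an NMDA subunit best known from the cerebellum, whose promoter peak (chr11:115267086-115267225) was called in 4 libraries at percentiles of 2.11, 5.05, 7.07 and 4.86 and in no PFF+Rab5 ASO library.

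Among the AMPA subunits the lead promoter of Gria4 had a mean percentile of 96.1 over the 12 libraries, Gria1 89.2, Gria2 84.3 and Gria3 65.8. Among NMDA subunits Grin3a stood at 96.0, Grin2b at 85.1 and the obligatory subunit Grin1 at 81.5. Grin2a, the subunit that largely replaces Grin2b after birth, stood at 55.1 and Grin2d at 36.7, the lowest of the 34. Grin2b stood above Grin2a in each of the 12 libraries, and the highest Grin2a value was 73.0. Kainate subunit promoters ran from Grik2 at 88.9 and Grik1 at 88.4 through Grik4 at 78.8 and Grik3 at 51.0 to Grik5 at 43.6, and Grid1 stood at 66.2. Metabotropic receptor promoters ran from Grm3 and Grm7, both at 91.2, through Grm8 at 85.3, Grm5 at 83.9 and Grm4 at 77.0 to Grm2 at 56.7. The TARP promoters stood at 82.6 (Cacng2, stargazin), 79.2 (Cacng3) and 72.7 (Cacng4). Among scaffolds Dlg2 stood at 98.0 and Dlg1 at 96.0, Shank3 at 91.4, Homer1 at 88.0, Dlg3 at 84.7, Homer3 at 83.5, Shank2 at 83.0, Dlg4 at 81.1, Homer2 at 77.6 and Shank1 at 73.0. Neighbours in this order overlapped in their library values, as with Gria4 (93.8 to 97.8) and Grin3a (93.7 to 98.9).

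**Figure D2:**
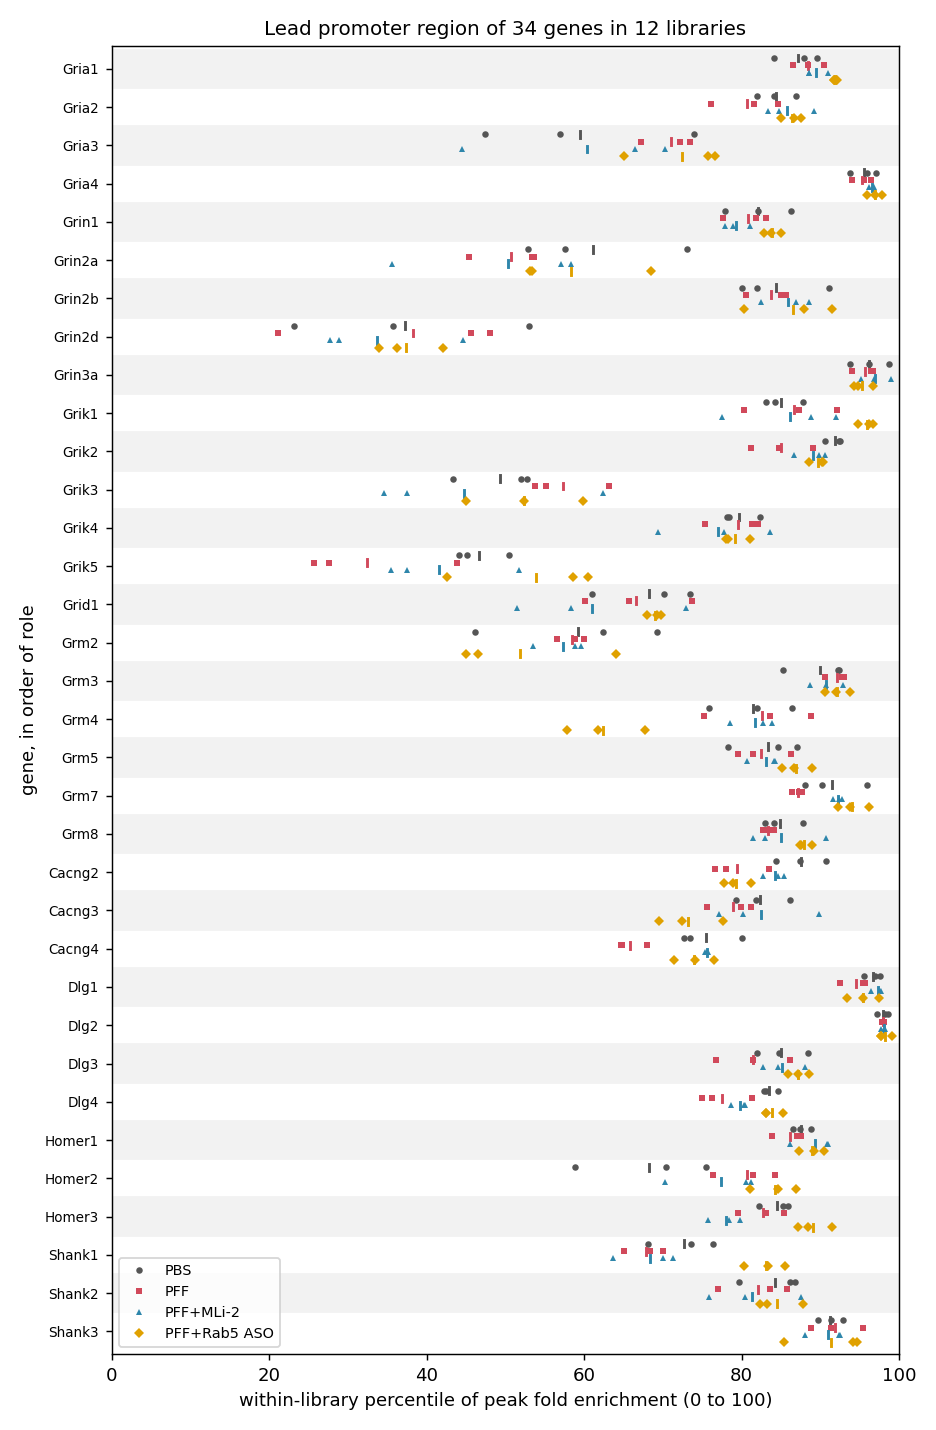
Within-library percentile of peak fold enrichment (horizontal axis, 0 to 100) of the lead promoter of 34 genes (vertical axis, in order of role) in 12 libraries. Points are libraries and short vertical lines are group means (n = 3 per group), and the Grm4 points of the PFF+Rab5 ASO group (57.8 to 67.7) lie below the other 9 libraries while those of Grik1 (94.8 to 96.7) and Shank1 (80.3 to 85.5) lie above them.

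Several gene-body elements ranked with the strongest promoters. The highest was the Grid1 intron whose window is printed above (region chr14:35074654-35074972, 254721 bp from the nearest start site), at percentiles of 99.5, 98.7 and 99.6 in PBS, 99.6, 99.8 and 99.6 in PFF, 99.6, 99.4 and 99.5 in PFF+MLi-2 and 98.4, 98.6 and 98.1 in PFF+Rab5 ASO. It stayed above 98 in all of them. Introns of Grm5 (chr7:87787592-87788016), Dlg2 (chr7:90694021-90694453), Dlg1 (chr16:31766778-31767099), Grin2b (chr6:135907587-135907929), Shank2 (chr7:144133101-144133523) and Grm8 (chr6:27689209-27689967) followed, and each was at or above 90.1 in each of the 12 libraries.

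The first comparison asked what 7 days of fibrils did to these genes. No member region passed the height test in PFF against PBS. The test was limma on the normal scores of the ranks, with 72465 regions common to all libraries and Benjamini-Hochberg adjustment, and it called 0 of them (0% called), against 7044 (9.72%) at an unadjusted p under 0.05. Ranks for the test were taken among these common regions, so they can order libraries with lists of unequal length differently from the percentiles. Among members 39 of 352 were at an unadjusted p under 0.05, 23 higher and 16 lower with PFF. An effect is given in units of the normal score, in which 1 is the standard deviation of heights in a library. The largest member differences were an intron of Grid1 (chr14:35519395-35519726), with an effect of 1.19 ± 0.22 (SE, limma adjusted p = 0.217), an intron of Grik3 (chr4:125515680-125515953), at 1.12 ± 0.25 (limma adjusted p = 0.232), an intron of Grm8 (chr6:27317492-27317793), at -1.45 ± 0.29 (limma adjusted p = 0.220), and an intron of Grin2b (chr6:135917641-135918019), at -1.48 ± 0.24 (limma adjusted p = 0.217).

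The Grin2b intron lies 253974 bp from the nearest start site of the gene of the main embryonic NMDA subunit. It stood at percentiles of 79.7, 78.5 and 73.7 in PBS, 51.8, 38.6 and 19.1 in PFF, 63.4, 81.9 and 70.0 in PFF+MLi-2 and 59.0, 58.3 and 44.6 in PFF+Rab5 ASO. All 3 PFF libraries were below all PBS and all PFF+MLi-2 libraries, whereas PFF+Rab5 ASO overlapped with PFF. The summits rested on 21 to 25 fragments in PBS and 11 to 16 in PFF. The Grm8 intron stood at 85.6, 82.9 and 75.4 in PBS, 66.0, 32.2 and 33.6 in PFF, 81.6, 88.2 and 74.8 in PFF+MLi-2 and 76.4, 55.4 and 68.2 in PFF+Rab5 ASO. PFF was again below PBS and PFF+MLi-2 in every library, and neither difference passed the test. These are also the largest positive member effects of PFF+MLi-2 against PFF, at 1.34 ± 0.27 for Grin2b (limma adjusted p = 0.195) and 1.53 ± 0.30 for Grm8 (limma adjusted p = 0.194). Both comparisons use the same PFF libraries, so a low PFF value moves both.

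No lead promoter passed the test with fibrils. In the 34 constant ones the effect was below 0 in 26, with a median of -0.12, against -0.07 for promoters of all genes, and 5 had all PFF libraries ranked below all PBS libraries (Grik2, Grik5, Grm7, Cacng4 and Dlg4) and 1 had them above (Homer2). That is 17.6%, against 15.1% of all 72465 regions whose ranks did not overlap (7.07% higher and 8% lower), and among promoters of all genes 913 were above and 2169 below. Cacng4, a TARP, stood at 75.4 ± 4.1 in PBS and 65.8 ± 1.8 in PFF (SD, n = 3), with an effect of -0.48 and a limma adjusted p of 0.474. Homer2 stood at 68.2 ± 8.5 in PBS and 80.7 ± 4.0 in PFF, with an effect of 0.50 and a limma adjusted p of 0.521. The median effect of all 70 constant member promoters was -0.08 and that of member introns 0.01.

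Peaks that appeared or vanished were few. A region counted as gained when it held a peak in all 3 PFF libraries and in 0 of 3 PBS libraries, and as lost when it was the other way round. No test was run per region, since an exact test of 3 libraries against 3 cannot give a p below 0.1. In PFF against PBS 1.10% of the 216981 regions with a peak in either group were gained and 0.405% lost. Of 1189 member regions, 12 were gained (1.01%) and 4 lost (0.336%), near those shares, and none was a promoter. The gained regions lay in introns of Dlg2 (chr7:90934379-90934572), Grm7 (chr6:110754509-110754626), Shank2 (chr7:144254998-144255203), Cacng2 (chr15:78085700-78085912), Grm4 (chr17:27433189-27433300 and chr17:27442668-27442816) and Grid1 (chr14:35088764-35088885, chr14:35162133-35162272 and chr14:35045451-35045605), and upstream of Grin3a (chr4:49847142-49847287), Homer3 (chr8:70281130-70281280) and Grik5 (chr7:25074017-25074202).

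The strongest of them, the Dlg2 intron, had percentiles of 18.5, 32.2 and 58.0 in PFF and of 48.0, 70.3 and 50.4 in PFF+Rab5 ASO, and no peak in the PBS or PFF+MLi-2 libraries. Among the 12, 4 had a peak only in the 3 PFF libraries. They are the first Grid1 intron (18.5, 42.0 and 22.6), the second Grid1 intron (5.3, 17.4 and 15.1), the Cacng2 intron (21.5, 12.7 and 29.1) and the first Grm4 intron (13.8, 8.0 and 36.1). The highest of these values is 42.0. The gained peaks rested on 10 to 38 fragments at the summit.

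The 4 lost regions were introns of Dlg2 (chr7:91613116-91613348), Grm3 (chr5:9703127-9703266), Grik2 (chr10:49509798-49510196) and Grik4 (chr9:42651331-42651563). The Grik4 peak stood at 48.0, 54.3 and 35.5 in PBS, was absent in PFF, and stood at 43.9, 43.2 and 51.6 in PFF+MLi-2 and at 21.6 and 23.5 in 2 of 3 PFF+Rab5 ASO libraries. The Grm3 peak, in the gene of a group II metabotropic receptor, stood at 69.2, 40.5 and 49.8 in PBS, was absent in PFF, stood at 54.6, 48.4 and 56.6 in PFF+MLi-2 and was called at 39.3 in 1 PFF+Rab5 ASO library. The Grik2 peak was absent in PFF and PFF+MLi-2 and stood at 54.8, 29.9 and 17.7 in PBS and 48.0, 48.3 and 50.4 in PFF+Rab5 ASO. The Dlg2 peak was absent in PFF, present in all PBS and PFF+Rab5 ASO libraries and called in 1 of 3 PFF+MLi-2 libraries. The peaks of these 4 regions rested on 10 to 18 fragments. With each library left out in turn, and a peak required in all that remained, there were 15 to 39 gained and 5 to 21 lost member regions.

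**Figure D3:**
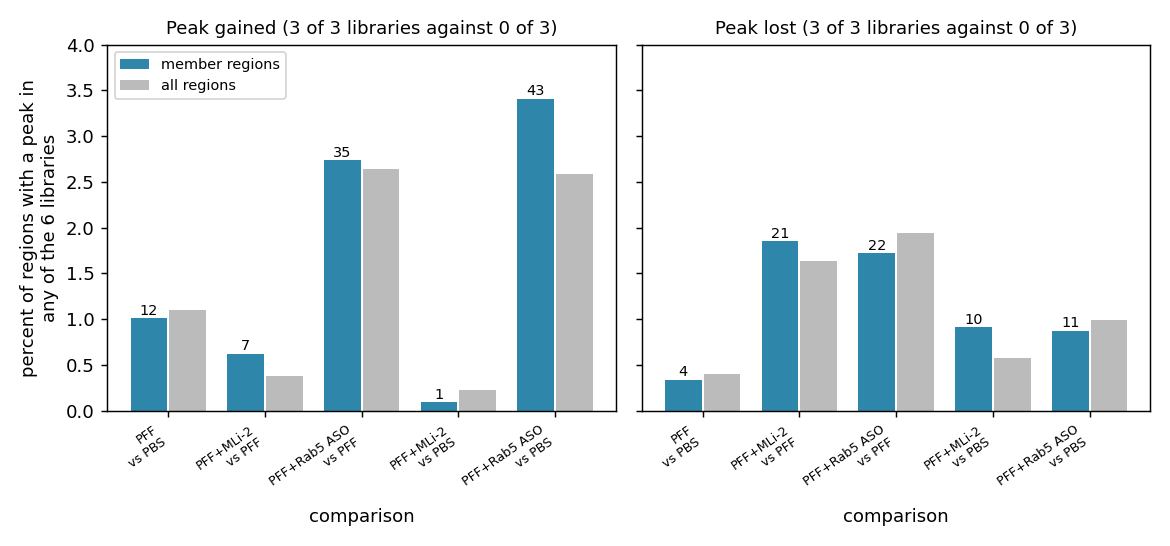
Percent of regions with a peak gained (left) or lost (right) in each comparison (vertical axis), for member regions (blue, with the number of regions above the bar) and for all regions (grey), among those called at least once in the 6 libraries compared. Member shares range from 0.0909% against 0.225% (gained, PFF+MLi-2 vs PBS) to 3.40% against 2.59% (gained, PFF+Rab5 ASO vs PBS), with 35 gained against 22 lost for PFF+Rab5 ASO vs PFF, and 43 gained against 11 lost when PBS is the control.

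The second comparison asked what the LRRK2 inhibitor changed in fibril-treated neurons. No member region passed the height test in PFF+MLi-2 against PFF, and limma called 0 of 72465 regions in all (0% called, 8289, or 11.4%, at an unadjusted p under 0.05). At an unadjusted p under 0.05 there were 15 higher and 25 lower member regions. The effect was above 0 in 27 of 34 lead promoters, with a median of 0.16, against 0.08 for promoters of all genes. In lead promoters 5 of 34 had all PFF+MLi-2 libraries ranked above all PFF libraries (Grik5, Grm7, Cacng4, Dlg1 and Dlg4) and 0 below. That is 14.7%, against 17.7% of all regions that did not overlap (10.1% higher and 7.55% lower), and among promoters of all genes 3112 were above and 1037 below. Cacng4 showed the largest effect of the lead promoters, 0.55, with 64.8, 67.9 and 64.6 in PFF and 75.3, 75.8 and 75.6 in PFF+MLi-2 (limma adjusted p = 0.333). The promoter of Grm7, a presynaptic receptor, stood at 87.6, 86.4 and 87.3 in PFF and 91.6, 92.8 and 92.3 in PFF+MLi-2 (limma adjusted p = 0.399). The lowest member effects were both in Grik3 introns, the one named above at -1.06 ± 0.26 (limma adjusted p = 0.236) and another (chr4:125572295-125572594) at -1.13 ± 0.38 (limma adjusted p = 0.342).

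More member peaks were lost than gained with MLi-2, as over the whole genome. Of 1134 member regions, 7 were gained (0.617%, against 0.374% of all 205235 regions) and 21 lost (1.85%, against 1.64%). The gained ones were the Grik4 and Grm3 introns described above, a second Grm3 intron (chr5:9707198-9707331), a Dlg2 intron (chr7:91592042-91592247), introns of Grid1 (chr14:34930481-34930640 and chr14:34951345-34951494) and an exon of Grin3a (chr4:49662349-49662521). The 5 highest of the lost regions were introns of Dlg2 (chr7:90934379-90934572), Grik4 (chr9:42670694-42670933), Grm8 (chr6:27617581-27617868), Gria4 (chr9:4639328-4639495) and Grm7 (chr6:111502727-111502904). The Dlg2 region is the one gained with PFF, and the Gria4 region held a peak in all PBS and PFF libraries. With each library left out in turn the counts ran from 7 to 16 gained and 27 to 51 lost. The lost count went to 7 when every library was cut to its 137417 best peaks, whereas gained regions came to 12, so the excess of losses was not present with lists of equal length.

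Against PBS, the PFF+MLi-2 libraries also showed 0 member regions past the height test and 0 of 72465 in all (4179, or 5.77%, at an unadjusted p under 0.05, 21 of them members). Their extremes were introns of Grid1 (chr14:35561352-35561593) at 1.12 ± 0.33, Grm8 (chr6:27965321-27965565) at 1.05 ± 0.33, Shank2 (chr7:144268401-144268665) at -0.92 ± 0.29 and Gria4 (chr9:4536883-4537024) at -1.05 ± 0.23, with limma adjusted p from 0.815 to 0.827. In lead promoters 2 of 34 did not overlap upwards (Cacng4 and Homer2) and 1 downwards (Grik2), or 8.82% against 10.3% of all regions (5.21% higher and 5.12% lower). Among promoters of all genes 1060 were above and 959 below. Of 1100 member regions 1 was gained (0.0909%, against 0.225%), the region upstream of Homer3, and 10 were lost (0.909%, against 0.577%). The lost ones lay in introns of Gria4 (chr9:4639328-4639495), Grik2 (chr10:49509798-49510196), Grid1 (chr14:35250559-35250712 and chr14:35008820-35008926), Grik4 (chr9:42871739-42871991 and chr9:42868972-42869170) and Grm4 (chr17:27456407-27456692), in an exon and an intron of Grin2d (chr7:45833732-45833876 and chr7:45873300-45873435), and in a promoter region of Dlg4 (chr11:70029954-70030089). Leaving out each library gave 3 to 9 gained and 12 to 30 lost.

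The third comparison asked what lowering Rab5 changed, and here member regions moved both ways. In PFF+Rab5 ASO against PFF limma called 19 of 352 member regions, 8 higher and 11 lower, or 5.40%. Over all 72465 regions 3.83% were called, 1.97% higher and 1.86% lower. By class, 17 of 263 introns and 2 of 70 promoters were called, against 1169 of 25041 gene-body regions and 307 of 21036 promoters of all genes. By role the calls were 3 of 26 for AMPA subunits, 2 of 39 for NMDA, 4 of 68 for kainate, 2 of 38 for Grid1, 5 of 49 for metabotropic receptors, 1 of 12 for TARPs, 2 of 65 for MAGUKs, 0 of 9 for Homers and 0 of 46 for Shanks. At an unadjusted p under 0.05 there were 1 of 9 Homer and 7 of 46 Shank regions, and 88 of all 352 member regions, against 21.1% of all 72465. The count fell with each library left out. Without PFF replicate 1, 2 or 3 they numbered 7, 7 and 3, and without PFF+Rab5 ASO replicate 1, 2 or 3 they numbered 0, 5 and 3.

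G+C content moved with the direction. The median window was 52.0% G+C in the 11 lower member regions and 43.0% in the 8 higher ones, with 51.5% and 44.0% over all called regions. With ranks taken within deciles of G+C content, an alternative chosen after seeing the data, 8 member regions were called, 3 higher and 5 lower, all among the 19. They were the lower Grm4 intron, the first Gria1 intron, the Grin1 promoter region, the Gria3 promoter region, the Grik5 intron, the first Grm7 intron and both called Dlg2 introns described below. The other 11 had limma adjusted p of 0.0555 to 0.111 there, among them all called introns of Grin2a, Grik3, Grik4, Grid1 and Cacng4. With each library left out in turn, 10 of the 19 passed in 0 of 6 fits. With the replicate number as a block, 14 of the 19 passed, without the Grik5 and Grik3 introns, the higher Grm4 intron, the first Grid1 intron and the lower Grm7 intron. PFF+Rab5 ASO libraries also called promoters of 0 or 1 of 5 microglial markers against 2 or 3 in PFF, and the oligodendrocyte lineage marker Sox10 in 1 of 3 libraries against 3 of 3. Of the microglial markers, Csf1r was still called in 2 of 3 libraries with the ASO. The part of these cells in the results was not tested.

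The lowest was in Grm4, the gene of a presynaptic group III metabotropic receptor. Its intron region chr17:27500918-27501136 stood at percentiles of 34.0, 54.2 and 46.9 in PBS, 60.1, 76.5 and 65.4 in PFF, 49.8, 12.7 and 35.8 in PFF+MLi-2 and 14.6, 1.5 and 4.2 in PFF+Rab5 ASO. The PFF+Rab5 ASO libraries were below all PFF and PBS libraries and overlapped with one PFF+MLi-2 library. The effect against PFF was -1.98 ± 0.26 (limma adjusted p = 0.0152), and it was called in 5 of 6 fits that left out a library and within G+C deciles (limma adjusted p = 0.0373). Against PBS it missed the threshold (limma adjusted p = 0.0581). The summit rested on 25 to 32 fragments in PFF and 13 to 18 in PFF+Rab5 ASO.

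A neighbouring Grm4 region moved the other way. At chr17:27501521-27502212, under 1 kb nearer to the start, the percentiles were 53.6, 48.0 and 40.8 in PFF and 70.6, 68.5 and 78.2 in PFF+Rab5 ASO, an effect of 0.89 ± 0.21 (limma adjusted p = 0.0495). PBS stood at 67.5, 38.2 and 37.5 and PFF+MLi-2 at 25.1, 44.2 and 47.0, so the ASO libraries were above the other 9. This call was lost in all 11 alternatives. The lead promoter of Grm4 (chr17:27520657-27520878) stood at 86.4, 75.9 and 82.0 in PBS, 75.2, 88.7 and 83.6 in PFF, 82.7, 78.5 and 83.8 in PFF+MLi-2 and 57.8, 67.7 and 61.7 in PFF+Rab5 ASO. All PFF+Rab5 ASO libraries were below the other 9, and the difference missed the threshold against PFF (effect -0.90, limma adjusted p = 0.0766) and against PBS (effect -0.89, limma adjusted p = 0.0660).

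**Figure D4:**
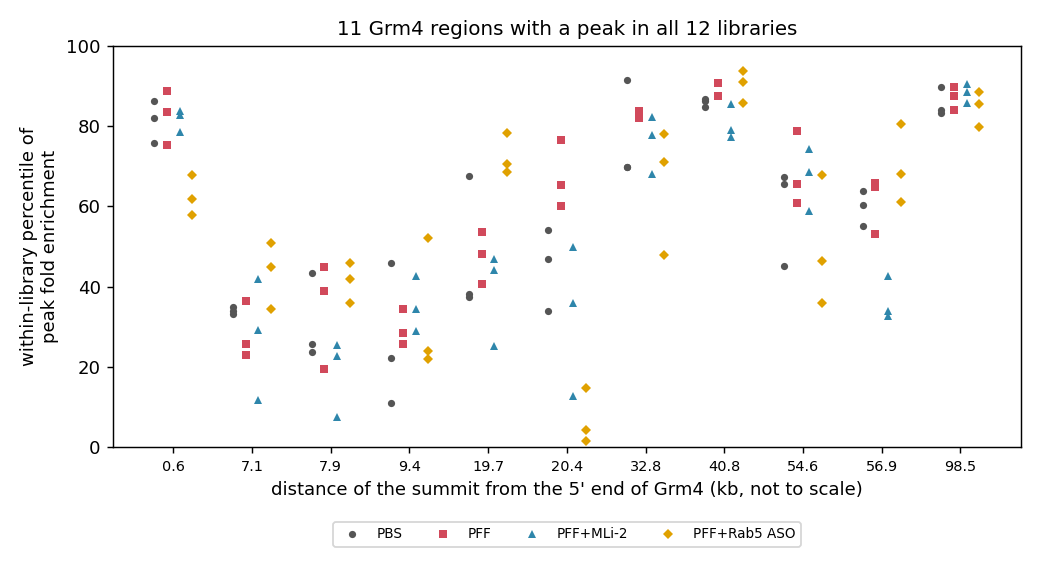
Within-library percentile of peak fold enrichment (vertical axis, 0 to 100) of the 11 Grm4 regions with a peak in all 12 libraries, ordered along the gene (horizontal axis, kb from the 5′ end, not to scale), with 1 point per library. The PFF+Rab5 ASO points at 20.4 kb lie between 1.5 and 14.6, and those at 0.644 kb lie below the other groups.

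The AMPA subunit calls were 2 of 20 introns, both lower and both in Gria1, and 1 of 6 promoters, higher and in Gria3. At an unadjusted p under 0.05, 5 AMPA introns were lower and 2 higher, and of 25041 gene-body regions of all genes 3304 were lower and 2836 higher. The Gria1 intron chr11:57062518-57062820 stood at 67.5, 49.3 and 44.7 in PBS, 74.7, 79.0 and 90.4 in PFF, 78.2, 51.0 and 76.2 in PFF+MLi-2 and 44.1, 11.3 and 38.6 in PFF+Rab5 ASO. The ASO libraries were below the other 9, an effect of -1.75 ± 0.32 against PFF (limma adjusted p = 0.0243). This call was kept in 1 of 6 fits that left out a library. A second Gria1 intron, chr11:57271640-57271947, stood at 86.4, 77.0 and 94.0 in PBS, 92.8, 76.4 and 89.9 in PFF, 83.5, 66.0 and 93.1 in PFF+MLi-2 and 54.9, 55.4 and 57.6 in PFF+Rab5 ASO. It was below every other library in the ASO group, with effects of -1.39 ± 0.27 against PFF (limma adjusted p = 0.0305) and -1.40 ± 0.27 against PBS (limma adjusted p = 0.0381). Neither call of this second intron held within G+C deciles. A promoter region of Gria3 (chrX:41401178-41401492), 9 bp upstream of a start site, stood at 43.1, 47.5 and 36.6 in PFF and 78.1, 81.3 and 65.4 in PFF+Rab5 ASO, an effect of 1.20 ± 0.22 (limma adjusted p = 0.0247). PBS spanned 35.2 to 81.2 there, so the ASO group overlapped with PBS. The Gria3 call was kept in 1 of 6 fits that left out a library and was lost with all 12 libraries in one fit (limma adjusted p = 0.0946).

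NMDA and kainate subunit genes each had calls in both directions. At Grin1, an internal promoter region (chr2:25303990-25304440) stood at 63.3, 53.8 and 45.3 in PBS, 75.2, 69.6 and 77.4 in PFF, 35.9, 51.2 and 53.6 in PFF+MLi-2 and 42.0, 5.0 and 25.9 in PFF+Rab5 ASO. PFF was the highest group in every library, and the effect of the ASO against PFF was -1.61 ± 0.28 (limma adjusted p = 0.0221). This call was kept in 2 of 6 fits that left out a library. The lead promoter of Grin1 stood at 77.6 to 83.1 in PFF and 82.8 to 85.0 in PFF+Rab5 ASO and did not pass the test (limma adjusted p = 0.754). An intron of Grin2a (chr16:9608093-9608651) was higher, at 90.1, 82.9 and 87.5 against 64.3, 47.8 and 69.0 in PFF (effect 1.19 ± 0.25, limma adjusted p = 0.0368). Introns of Grik4 (chr9:42764863-42765141), Grik5 (chr7:25047505-25047704) and Grik3 (chr4:125696212-125696556) were lower, with effects of -1.10 ± 0.21, -1.01 ± 0.20 and -0.83 ± 0.19 (limma adjusted p = 0.0277, 0.0305 and 0.0463). Against PBS, in the same order, the effects were -0.82, -0.04 and -0.46 (limma adjusted p = 0.0878, 0.960 and 0.261). The Grik5 intron stood at 51.0, 11.9 and 6.3 in PBS, 57.6, 58.3 and 55.2 in PFF and 14.0, 25.1 and 15.4 in PFF+Rab5 ASO. Another Grik4 intron (chr9:42658521-42658796) was higher, at 85.0, 79.2 and 82.6 against 64.7, 29.2 and 30.3 in PFF (effect 1.47 ± 0.27, limma adjusted p = 0.0253), while PBS stood at 86.1, 58.3 and 69.4. This higher Grik4 call was kept in 1 of 6 fits that left out a library.

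The remaining calls lay in introns of Dlg2, Grid1, Grm7 and Cacng4. The Dlg2 region chr7:91420207-91420696 stood at 65.2, 66.8 and 67.7 in PBS, 66.0, 66.8 and 72.2 in PFF, 60.3, 39.6 and 65.9 in PFF+MLi-2 and 97.3, 91.9 and 93.9 in PFF+Rab5 ASO. The ASO libraries were far above the other 9, on 27 to 36 fragments against 12 to 18. The effect was 1.54 ± 0.23 against PFF (limma adjusted p = 0.0159) and 1.55 ± 0.24 against PBS (limma adjusted p = 0.0271), and both calls held within G+C deciles (0.0348 and 0.0488, limma adjusted p). The call against PFF was kept in 4 of 6 fits that left out a library, and the call against PBS in 0 of 6. The Grm7 region chr6:111351258-111351687 stood at 43.8, 49.3 and 49.8 in PBS, 30.0, 16.1 and 27.7 in PFF, 19.8, 48.4 and 11.5 in PFF+MLi-2 and 76.4, 73.9 and 63.3 in PFF+Rab5 ASO. It was above all other libraries in the ASO group, with an effect of 1.48 ± 0.21 against PFF (limma adjusted p = 0.0152, and 0.0346 within G+C deciles). A second Grm7 intron (chr6:111512370-111512692) and an intron of Cacng4 (chr11:107777593-107777929) were higher too, at 1.24 ± 0.28 and 1.27 ± 0.26 (limma adjusted p = 0.0452 and 0.0347). Neither of these 2 calls held within G+C deciles (0.0652 and 0.0594, limma adjusted p), and each was kept in 0 of 6 fits that left out a library.

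Lower regions in these genes were a Dlg2 intron (chr7:90825730-90826054), at 82.1, 91.4 and 86.0 in PFF and 39.4, 55.4 and 50.4 in PFF+Rab5 ASO (effect -1.58 ± 0.24, limma adjusted p = 0.0173), and a Grm7 intron (chr6:111372982-111373326) at -0.89 ± 0.19 (limma adjusted p = 0.0376). The Grid1 introns chr14:34944694-34944953 and chr14:35103676-35104141 were also lower, at -1.43 ± 0.34 and -1.26 ± 0.27 (limma adjusted p = 0.0498 and 0.0373). Among the calls of this fit, Dlg2, Grm4, Grm7 and Grik4 thus each held both a higher and a lower region. Within G+C deciles only Dlg2 kept a call in each direction.

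**Figure D5:**
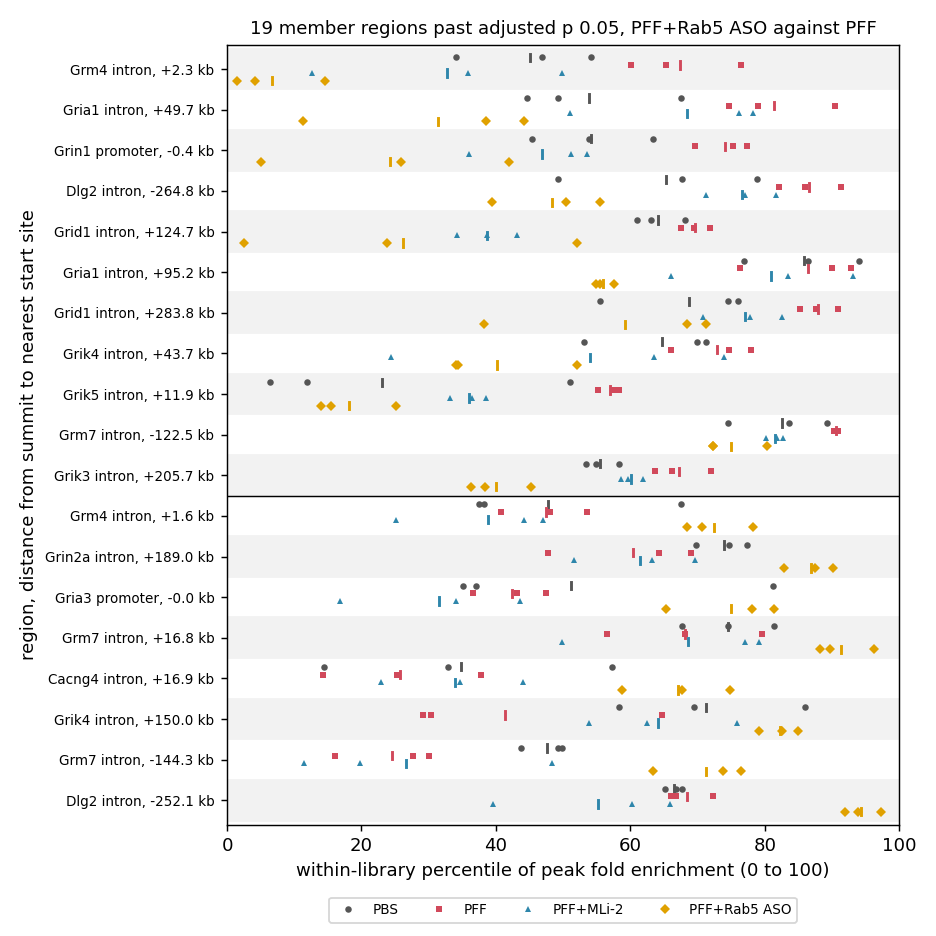
Within-library percentile of peak fold enrichment (horizontal axis, 0 to 100) of the 19 member regions past the limma threshold in PFF+Rab5 ASO vs PFF (vertical axis, gene, class and distance to the nearest start site). Points are libraries and short vertical lines are group means (n = 3), with 11 lower regions above the black line and 8 higher regions under it.

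Of the 34 constant lead promoters, 8 had all PFF+Rab5 ASO libraries ranked above all PFF libraries (Gria1, Grik1, Grm7, Grm8, Cacng4, Dlg4, Homer3 and Shank1) and 1 below (Grm4), while 0 passed the test and 5 were at an unadjusted p under 0.05. That is 26.5%, against 25.9% of all regions that did not overlap (13.5% higher and 12.4% lower), and among promoters of all genes 3122 were above and 1587 below. Shank1 stood at 68.4, 65.1 and 70.0 in PFF and 85.5, 83.4 and 80.3 in PFF+Rab5 ASO (effect 0.70, limma adjusted p = 0.0746). Grik1 stood at 83.1, 87.8 and 84.3 in PBS, 87.3, 92.1 and 80.3 in PFF, 77.5, 88.8 and 92.0 in PFF+MLi-2 and 94.8, 96.7 and 96.1 in PFF+Rab5 ASO, above the other 9 libraries (effect 0.74, limma adjusted p = 0.101). The median effect of all 70 constant member promoters was 0.17, against 0.06 for promoters of all genes.

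Gained and lost peaks of the members lay mostly in introns. Of 1279 member regions with a peak in either group, 35 were gained (2.74%, against 2.64% of all 230866) and 22 lost (1.72%, against 1.94%). Of the gained ones 34 were introns and 1 was a promoter region of Shank1 (chr7:44310020-44310243). Of the lost ones 20 were introns, 1 an exon of Grin2c (chr11:115250191-115250367) and 1 a promoter region of Shank3 (chr15:89500485-89500762). Gained peaks were 3.10% of 1096 member introns and 0.794% of 126 member promoters, against 2.58% of gene-body regions and 0.864% of promoters of all genes. Lost peaks were 1.82% and 0.794%, against 2.37% and 1.26%. Gained regions had a median G+C of 40.5% and lost regions 51.8%, with 40.5% and 50.0% over all gained and lost regions. The 5 highest gained regions were introns of Grm7 (chr6:111412637-111412737), Shank2 (chr7:144258409-144258581), Dlg2 (chr7:91613116-91613348 and chr7:92004538-92004760) and Grm8 (chr6:27443647-27443733). The Grm7 peak stood at 73.3, 66.1 and 63.3 in PFF+Rab5 ASO and was called in no other library, on 16 to 19 fragments.

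The 5 highest lost regions were introns of Grin2a (chr16:9801432-9801633), Gria1 (chr11:57278089-57278383), Dlg2 (chr7:92095293-92095515), Gria2 (chr3:80784564-80784777) and Grik4 (chr9:42918023-42918261). The Dlg2 peak was called in all 9 other libraries, at 65.2, 49.3 and 61.0 in PBS, 44.6, 7.7 and 40.2 in PFF and 54.6, 39.6 and 55.3 in PFF+MLi-2, on 9 to 17 fragments. AP-1 letters were in 2 of the 22 lost member windows, against 24.6% of all lost regions, and in 2 of the 35 gained ones, against 7.42%. Leaving out each library gave 39 to 65 gained and 26 to 44 lost member regions.

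Against PBS fewer regions of the ASO group passed the height test. Limma called 7 of 352 member regions (1.99%), 5 higher and 2 lower, against 1.63% of all regions (1.00% higher and 0.631% lower), and 75 of the 352 were at an unadjusted p under 0.05, against 18.7% of all regions. Besides the Dlg2 and Gria1 introns above, an intron of Gria2 (chr3:80697668-80698099) was lower, at 85.6, 66.8 and 71.9 in PBS and 54.9, 28.3 and 31.0 in PFF+Rab5 ASO (effect -1.31 ± 0.25, limma adjusted p = 0.0392). An exon region of Grin2a (chr16:9663567-9663917) was higher, at 69.2, 17.9 and 41.0 in PBS and 92.4, 85.7 and 88.6 in PFF+Rab5 ASO (effect 1.80 ± 0.31, limma adjusted p = 0.0313). Introns of Grik1 (chr16:88074790-88075023), Grm8 (chr6:27965321-27965565) and Dlg2 (chr7:91486849-91487218) were higher as well, at 1.47 ± 0.21, 1.49 ± 0.30 and 1.23 ± 0.25 (limma adjusted p = 0.0271, 0.0440 and 0.0438). The largest negative effect that missed the threshold was another Grm8 intron (chr6:27580122-27580461), at -1.37 ± 0.46 (limma adjusted p = 0.145). With any 1 of the 6 libraries left out, 0 of these 7 regions passed. The one call made without PBS replicate 3 was the Grm8 intron that had missed the threshold. With the replicate number as a block there were also 0, with limma adjusted p of 0.0736 to 0.0820 for the 7 regions. In lead promoters 4 of 34 did not overlap upwards (Gria1, Grik1, Homer2 and Shank1) and 4 downwards (Grik2, Grm4, Cacng2 and Cacng3), or 23.5% against 23.0% of all regions. Among promoters of all genes it was 17.9%, with 1864 above and 1896 below.

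Of 1263 member regions, 43 were gained against PBS (3.40%, against 2.59% of all 227503) and 11 lost (0.871%, against 0.991%). The 5 highest gained regions were introns of Grm7 (chr6:111412637-111412737), Grik3 (chr4:125614003-125614263), Dlg2 (chr7:92004538-92004760), Grm8 (chr6:27443647-27443733) and Gria1 (chr11:57149382-57149597). By role, out of all member regions of that role, the gains were 12 of 241 in metabotropic receptors, 9 of 298 in MAGUKs, 8 of 249 in kainate subunits, 5 of 124 in AMPA subunits, 3 of 134 in Shanks, 2 of 62 in TARPs, 2 of 141 in Grid1, 1 of 40 in Homers and 1 of 196 in NMDA subunits. All 11 lost regions were introns, in Grin2b (chr6:136113514-136113769, chr6:136153613-136153849 and chr6:135900501-135900793), Grm8 (chr6:27746126-27746459 and chr6:28091180-28091358), Dlg2 (chr7:92095293-92095515), Gria2 (chr3:80784564-80784777), Grid1 (chr14:35097268-35097555), Gria1 (chr11:57294161-57294352), Gria4 (chr9:4454125-4454289) and Grm4 (chr17:27456407-27456692). Leaving out each library gave 50 to 77 gained and 14 to 35 lost. Both ASO comparisons share the ASO libraries, and the comparisons with PFF share the PFF libraries.

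A list of 24 other postsynaptic genes (among them Dlgap1 to Dlgap4, Grip1, Neto1 and Nptx1), not members of the set, was read out of the same fits, and its difference from the members was not tested. It held 804 regions in 23 genes, of which 217 were constant. Limma called 0 of them with PFF against PBS (23 at an unadjusted p under 0.05) and 0 with MLi-2 against PFF (28 at an unadjusted p under 0.05). With the ASO it called 10 against PFF (4.61%, 7 higher and 3 lower) and 4 against PBS (1.84%). Of 666 of its regions, 4 were gained (0.601%) and 2 lost (0.300%) with PFF against PBS. With MLi-2 against PFF 0 of 622 were gained and 12 lost (1.93%), and with the ASO against PFF 15 of 712 were gained (2.11%) and 7 lost (0.983%).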

How the data were processed

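ATAC-seq peak lists of 12 libraries were analysed. According to the submitters' processing notes, the authors used Trim Galore 0.6.7, Bowtie2 2.5.1 (GRCm38) and MACS2 2.2.7.1, which called peaks in each library. MACS2 options, duplicate handling and any shift for the Tn5 offset are not given in the sources used here. The deposited lists give a fold enrichment (a ratio) and −log10 p and q values for each peak, a deposited score that was not used, and the summit. Groups were taken from titles and treatment labels, since the free-text descriptions of treated libraries name PBS in place of PFF.

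Peaks sharing 1 bp or more were joined into regions and assigned to genes with GENCODE vM21. Fold enrichment was ranked within each list. Ranks over regions common to all libraries were turned into normal scores and compared between 2 groups of 3 with limma 3.58.1 in R 4.3.3, with Benjamini-Hochberg adjustment over 72465 regions and a threshold of 0.05. Tested on simulated data, a shift of 2 score units in 200 regions was recovered in 66.5% of cases with the libraries of PFF vs PBS and in 62.5% with those of PFF+Rab5 ASO vs PFF, and a shift of 1 in 0%. With only 200 of 72465 regions shifted, the adjusted threshold was stricter than in the real PFF+Rab5 ASO vs PFF fit, which called 3.83% of regions. That fit called a Grik3 intron at an effect of -0.83, so the 0% is not its recovery rate. Summit pileups and relative depth were computed from the fold and p-value columns with the MACS2 formulas, taking the smallest peak width as the fragment length for depth, and 99.97% of 3267 simulated pileups came back. Counts of fragments cover counting error only.

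Named regions were the lead promoter of each gene, regions gained or lost (all when 12 or fewer, otherwise the 5 highest), regions past the threshold, and the 2 largest effects in each direction. The members, roles and lists were chosen with earlier results of these data known. Ranks within G+C deciles and the regions shown as sequence were chosen after seeing the data. Read counts per region and the authors' differential results were not used here.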

Additional observations from a re-analysis of the deposited data

How the results depend on the processing

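Height calls in PFF vs PBS and in both MLi-2 comparisons were 0 in every alternative run, including each library left out. The 19 calls of PFF+Rab5 ASO vs PFF became 12 with ranks by −log10 p and 8 with ranks within G+C deciles, and 0 to 7 with a library left out. The 7 calls of PFF+Rab5 ASO vs PBS became 2 and 3 in the same order. With a library left out there were 0 to 1 calls, and 0 of the 7 regions passed. The study's methods treat a pregnancy as a replicate and divide its cultures among the groups at random. Whether equal numbers mark a shared pregnancy is not given in the sources used here. Libraries of the same number correlated at 0.00513 to 0.0788 in their deviations from the group means. Such low values do not show that pairing is absent, and the fit without pairing was kept as the main one. With the replicate number as a block, PFF+Rab5 ASO vs PBS had 0 calls and PFF+Rab5 ASO vs PFF 16, of which 14 were among the 19. The 5 lost were in introns of Grik5, Grik3, Grid1 (chr14:34944694-34944953), Grm7 (chr6:111372982-111373326) and Grm4 (chr17:27501521-27502212), with limma adjusted p of 0.0514 to 0.0773. None of the 26 results for regions past the threshold, or of the 13 for the largest effects that missed it, changed direction in the alternatives run, and 1 of the 13 passed the threshold without PBS replicate 3 (the Grm8 intron at chr6:27580122-27580461, PFF+Rab5 ASO vs PBS, limma adjusted p = 0.0481). Lead promoters and single gained or lost regions were not refitted. The cause of these changes was not tested, apart from the smaller number of libraries when one is left out.

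Gained and lost counts depend on the call rule. When 2 of 3 libraries against 0 sufficed they were 66 and 34 (PFF vs PBS), 15 and 74 (MLi-2 vs PFF), 100 and 78 (ASO vs PFF), 17 and 42 (MLi-2 vs PBS) and 116 and 47 (ASO vs PBS). With an equal number of top peaks, lost regions were 9 in PFF vs PBS and 22 in ASO vs PBS, and MLi-2 vs PFF had 12 gained and 7 lost. With a −log10 q of at least 5, lost regions were 7 in PFF vs PBS, 9 in MLi-2 vs PFF and 3 in MLi-2 vs PBS, and gained regions 23 in ASO vs PFF, 2 in MLi-2 vs PBS and 22 in ASO vs PBS. With 1 kb upstream in place of 5 kb, MLi-2 vs PBS had 0 gained. With a library left out, gained and lost regions ranged over 15 to 39 and 5 to 21 (PFF vs PBS), 7 to 16 and 27 to 51 (MLi-2 vs PFF), 39 to 65 and 26 to 44 (ASO vs PFF), 3 to 9 and 12 to 30 (MLi-2 vs PBS) and 50 to 77 and 14 to 35 (ASO vs PBS). Single libraries that moved a count most were PFF replicate 3 (39 gained in PFF vs PBS, 51 lost in MLi-2 vs PFF), PBS replicate 2 (21 lost in PFF vs PBS, 35 lost in ASO vs PBS, 30 lost in MLi-2 vs PBS) and PFF replicate 1 (65 gained in ASO vs PFF).

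Gained and lost peaks rested on 8 to 50 fragments at the summit, so an absent peak means one not detected at this depth.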

Other observations

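Member regions called in all 3 libraries of one group and in none of the other 9 were found mainly with the Rab5 ASO. There were 22 in PFF+Rab5 ASO (1.48% of member regions, against 1.14% of all regions), 4 in PFF (0.269%, against 0.202%) and 0 in PBS and in PFF+MLi-2 (67 and 51 over all regions). The 22 were all introns, with 4 in Dlg2 and 3 in Grm7, the presynaptic receptor gene. In the reverse pattern, the Dlg2 region printed with the sequences was the one absent only with the ASO, and a Grik4 intron (chr9:42871739-42871991) was the one absent only with MLi-2.

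The number of member regions called varied between libraries of the same group. PFF+Rab5 ASO libraries called 722 to 827 member regions, PFF libraries 666 to 815, PBS libraries 583 to 829 and PFF+MLi-2 libraries 625 to 659. As a share of the regions called in a library, members made up 0.506% to 0.551% over the 12 libraries.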
